A study of Mus musculus with 6 samples.

Results

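Long intergenic noncoding RNAs are transcripts, often spliced and polyadenylated, that arise between protein-coding genes and have no long open reading frame. Many were first mapped as stretches of transcribed chromatin rather than as cloned RNAs, and most are present at low levels and in few cell types. Individual ones are known to guide chromatin regulators, to act on nearby genes by being transcribed, or to bind proteins and microRNAs, but for most no function is known. Many such transcripts are made in the male germ line.

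The members described here are the array probes whose only name is a genomic interval, with no gene symbol, and which were well above background on at least 3 of the 6 arrays by the scanner program's own flag. They were 6995 of the 16194 interval probes on the array (43.2%), and 21.6% of the 32422 probes of every kind that passed the same filter. Of the 39487 other probes, 64.4% passed. Of the interval probes, 7777 were well above background on no array, 413 on exactly 2 and 358 on exactly 3, so the threshold lies in a thinly filled range. The median log2 level of those on exactly 2 arrays was −5.30 and that of those on exactly 3 was −5.05. All log2 levels are relative to the signal at the 75th percentile of the same array, which has the level 0. A probe that passed through only 1 group, because it was high there, had to differ between the groups, so that counts over the members describe them and support nothing further.

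The cells were mouse spermatogonial stem cells, from which sperm production is renewed, cultured on mouse embryonic fibroblast feeder cells. They received 0.01 M captopril, an inhibitor of angiotensin-converting enzyme, for 24 h (captopril replicates 2, 3 and 4), or sterile water for 24 h as the control (water replicates 2, 3 and 4). The label also writes 0.01 M for the water, so what that number refers to there is not settled. Strain, age and genotype of the animals are not given in the sources used here, and neither is whether the independent experiments began from different animals, so the p-values measure the spread between these 6 arrays.

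Water replicate 3 stood apart from the other arrays. Over all probes tested its log2 levels correlated at 0.878 to 0.893 with theirs, against 0.970 to 0.991 among the remaining 5. The main results are therefore given over all 6 arrays and again over the 5 without it, 2 water and 3 captopril. All captopril arrays lay in slide row 2, which held 1 water array, replicate 4. RNA came from the whole culture: 17 of 17 germ cell markers and 14 of 14 fibroblast markers were measured. The summed linear level of the germ cell markers was 86.6 to 139 on water arrays and 93.3 to 120 on captopril arrays. That of the fibroblast markers was 175 to 318 and 158 to 194, and both water maxima were on replicate 3. Of the Sertoli, Leydig, leukocyte and spermatid markers, 3 of 7, 1 of 6, 5 of 6 and 1 of 4 passed the filter. The Sertoli markers summed to 0.744 to 1.48 in water and 0.696 to 0.826 with captopril. In such bulk RNA, fewer cells of a type and less RNA per cell cannot be told apart, and the part of cell composition in the results was not tested.

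Most of the members were dim. Their median log2 level was −2.80, against −0.21 for the other probes tested, and 46.6% of them lay under −3, against 20.3% of the others. The share of interval probes well above background was 45.0%, 33.1% and 41.8% on water replicates 2, 3 and 4, and 44.0%, 44.8% and 41.4% on captopril replicates 2, 3 and 4. The groups overlapped in this share, and water replicate 3 was the lowest. On the same arrays 66.3% to 73.7% of the probes for curated messenger RNAs and 45.1% to 52.6% of those for curated noncoding RNAs were well above background, with water replicate 3 lowest for both. Among the members, 799 had a mean level above 1.

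The 5 brightest members came from 4 intervals and had similar levels on most arrays. A_30_P01031246 read 6.92, 6.73 and 5.85 on water replicates 2, 3 and 4, and 6.43, 6.71 and 6.30 with captopril. A_30_P01024671 read 6.23, 6.17 and 6.11 in water and 6.16, 6.78 and 6.53 with captopril, and A_30_P01022039, a probe to the same interval and strand, read 5.97, 6.32 and 5.71 in water and 5.84, 6.07 and 6.18 with captopril. The groups overlapped for all of these. A_30_P01017598 read 6.84, 4.24 and 6.01 in water, the low value on replicate 3, and 6.46, 6.35 and 6.89 with captopril. Its 2 companion probes had log2 fold changes (captopril minus water) of 1.37 and 1.68 over 6 arrays and 0.13 and 0.17 without water replicate 3. A_30_P01031448 read 5.90, 5.48 and 5.71 in water and 5.94, 6.16 and 6.34 with captopril, so that its groups did not overlap, and it stood 0.45 higher with captopril (SE 0.23, limma adjusted p = 0.577) over 6 arrays and 0.34 higher over 5.

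No member passed the test over all 6 arrays. limma called 0 of the 6995 at an adjusted p under 0.05, and 0 of all 32422 probes (0.0%), with a smallest adjusted p of 0.554. At an unadjusted p under 0.05 there were 876 members (12.5%; all probes 8.84%), 698 higher and 178 lower with captopril, which is 9.98% and 2.54% of them, against 4.96% and 3.88% of all probes tested. The captopril arrays lay entirely above the water arrays in 1720 members (24.6%; all probes 14.5%) and entirely below in 394 (5.63%; all probes 9.32%). The members had a median of 0.30 and the other probes of 0.02, as log2 fold change. A difference of at least 2-fold upward was seen in 14.5% of the members (all probes 9.51%) and downward in 1.66% (all probes 2.22%). Among the 4822 members well above background on all 6 arrays, 20.1% lay above without overlap and 7.11% below, with a median of 0.15. For all probes with that detection the shares were 11.6% and 10.3%, with a median of 0.01.

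The direction of these counts followed the scaling of the arrays, while the gap to the other probes did not change sign. Subtracting each array's median in place of its 75th percentile moved the median of all probes by −0.32. The members then had a median of −0.02 and the other probes −0.30, and 802 members lay above and 822 below without overlap (all probes 1882 and 6091). Quantile normalization gave medians of 0.12 for members and −0.02 for other probes. It left 1102 members above (15.8%; all probes 11.2%) and 611 below (8.73%; all probes 12.4%). Of the members at an unadjusted p under 0.05, 79.7% were higher under the main scaling (all probes 56.1%) and 38.5% with the array median (all probes 16.7%). Quantile normalization left 390 higher and 319 lower (all probes 1061 and 1978), so the shares of all probes moved the same way. Under the main scaling, quantile normalization and the array median, the median of the members lay above that of the other probes by 0.28, 0.14 and 0.28. The gap was 0.12 without water replicate 3, 0.13 with the slide row as a block and 0.08 without the filter on dim probes. No test of this difference between the probe classes was made.

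On single arrays, members and other probes parted most on water replicate 3. Each probe was set against its own median over the 6 arrays. The members then had a median of −0.04, −0.19 and −0.11 on water replicates 2, 3 and 4 and of 0.00, 0.10 and 0.17 on captopril replicates 2, 3 and 4. The other probes stood at −0.02, 0.25 and −0.07 in water and at −0.03, 0.01 and 0.10 with captopril. Members were thus low and other probes high on water replicate 3. The members minus other probes difference was −0.03, −0.44 and −0.04 in water and 0.03, 0.09 and 0.07 with captopril, without overlap of the groups.

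Brightness and fold change were related in both classes, and the classes were therefore compared within 7 ranges of mean level. Below a level of −4 the median log2 fold change over 6 arrays was 0.55 for 1817 members and 0.32 for 2623 other probes. Between −4 and −3 it was 0.37 and 0.19, and between −3 and −2 it was 0.28 and 0.17. Between −2 and −1 it was 0.24 for 800 members and 0.06 for 2854 others, between 0 and 1 it was 0.08 and −0.06, and above 1 it was 0.03 for 799 members and −0.04 for 8945 others. The members had the higher median in each of the 7 ranges. Without water replicate 3 they had it in all but the brightest, where the members stood at 0.10 and the others at 0.11. Between −1 and 0, 23.3% of the members and 12.2% of the others lay above without overlap over 6 arrays, and 8.3% and 12.0% lay below. For levels over 1 the shares were 9.5% and 5.9% above, and 6.8% and 9.0% below. Without water replicate 3, 23.5% of these bright members and 27.9% of the others lay above. It was the only range with the lower share among members in that fit.

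Without water replicate 3, 18 members passed the test, 16 of them higher and 2 lower with captopril. limma called 83 of the 32422 probes in that fit (0.256%), 64 higher (0.197%) and 19 lower (0.0586%), so that the members' share of 0.257% lay at the background. At an unadjusted p under 0.05 there were 1744 members (24.9%; all probes 19.9%). The captopril arrays lay above water replicates 2 and 4 in 35.9% of the members (all probes 29.7%) and below in 9.46% (all probes 14.0%). A 2-fold difference was rare, at 2.09% upward (all probes 1.34%) and 1.14% downward (all probes 1.35%). All 18 called members exceeded it, and their median log2 level was −3.44. In 13 of the 18, all of them higher, the captopril arrays also lay beyond water replicate 3. The calls depended on the setting: under quantile normalization, with the array median and without the filter on dim probes limma called 0 members, and 0 of all probes. At an unadjusted p under 0.05 there were 1475 members (21.1%; all probes 19.5%), 1418 (20.3%; all probes 19.7%) and 2232 (13.8%; all probes 12.4%) in these 3 settings. When all 5 arrays had to be well above background, limma called 56 of 6048 members and 189 of all 29857 probes. It called 0 when water replicate 4 or any captopril replicate was left out as well. Without water replicate 2 it called 3, which were none of the 18 but the probes, described further on, that stood out on water replicate 4.

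The 18 probes came from 12 intervals, and in 5 of these more than 1 probe was called. These 12 intervals held 40 further members that were not called, of which 38 had the sign of the called ones in the fit of 5 arrays. Most calls were rises, and in that fit 70.7% of all members and 62.0% of all probes had a log2 fold change above 0. In 2 intervals probes to both strands were called. Probes of an interval may report the same RNA, so they are not independent.

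The largest interval by calls had 3 called forward probes. A_30_P01020339 read −4.36, −3.50 and −4.28 on water replicates 2, 3 and 4 and −2.75, −2.64 and −3.03 on captopril replicates 2, 3 and 4, so that all captopril arrays lay above all 3 water arrays. Without water replicate 3 the mean rose, with −4.32 ± 0.05 (SD, n = 2) in water and −2.81 ± 0.20 (n = 3) with captopril, which is a rise of 1.51 log2 units (SE 0.18, limma adjusted p = 0.043). A_30_P01026548 read −4.42, −3.12 and −4.35 in water and −3.07, −2.90 and −3.13 with captopril, where water replicate 3 lay within the captopril range, and it rose by 1.35. A_30_P01017796 read −3.61, −3.50 and −3.51 in water and −2.38, −2.20 and −2.21 with captopril without overlap, and it rose by 1.29. The other 2 forward members of this interval stood at 1.13 and 0.57, and its 7 reverse members, from −0.44 upward, did not pass either.

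A second interval had both of its strands called. The forward probe A_30_P01019354 read −3.74, −2.87 and −4.05 in water and −2.50, −2.42 and −2.50 with captopril. It rose by 1.42 (SE 0.16, limma adjusted p = 0.043), and its captopril arrays lay above all water arrays. The reverse probe A_30_P01030317 read −3.07, −3.27 and −3.15 in water and −1.94, −1.78 and −1.73 with captopril, again without overlap, and rose by 1.30 (limma adjusted p = 0.045). A further reverse probe, A_30_P01032256, was brighter, at 0.15, 1.22 and −0.02 in water and 0.58, 0.89 and 1.02 with captopril, and stood at 0.76 (limma adjusted p = 0.110).

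The other interval with calls on both strands held A_30_P01018461 (reverse) and A_30_P01029414 (forward). The reverse probe read −5.72, −3.80 and −5.62 in water and −3.89, −3.95 and −4.02 with captopril. It was not well above background on water replicates 2 and 4 but was so on replicate 3, where it stood above the captopril arrays. In the fit of 5 arrays it was at least 2.62-fold higher with captopril (limma adjusted p = 0.043). For this bound each water array entered with the probe's reading or the array's lowest signal well above background, whichever was higher. Within those 5 arrays the probe was well above background only with captopril, so its p-value there supports nothing further. The forward probe read −4.51, −4.14 and −4.53 in water and −3.28, −3.43 and −3.20 with captopril, without overlap, and rose by 1.22 (limma adjusted p = 0.049).

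A pair of reverse probes to 1 interval were both called and differed in how they stood on water replicate 3. A_30_P01033321 read −4.72, −3.57 and −4.45 in water and −3.09, −2.91 and −2.94 with captopril, and rose by 1.60 (SE 0.17). A_30_P01029108 read −3.87, −2.56 and −4.15 in water and −2.51, −2.31 and −2.29 with captopril, and rose by 1.64 (SE 0.17). In the latter, water replicate 3 came just under the lowest captopril array. The third member of the interval and strand, A_30_P01017718, read −4.86, −4.93 and −5.25 in water and −4.04, −4.30 and −4.42 with captopril, and stood at 0.81 (limma adjusted p = 0.110).

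Of the rises at intervals with a single call, A_30_P01033241 read −3.92, −4.98 and −4.24 in water and −2.46, −2.36 and −2.77 with captopril. It was not well above background on water replicate 3, and rose by 1.55 in the fit of 5 arrays (SE 0.19, limma adjusted p = 0.049). Over 6 arrays its value was 1.85 (SE 0.33, limma adjusted p = 0.554), and its 2 companion probes stood at 1.25 and 1.87. A_30_P01027229 read −2.60, −1.32 and −2.84 in water and −1.28, −1.14 and −1.08 with captopril, the brightest of the 10 rises named here, and rose by 1.56 (SE 0.16). Its water replicate 3 lay just under the captopril arrays.

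For 3 further rises too only a bound could be given, since water was not well above background in that fit. A_30_P01031701 read −6.31, −6.85 and −6.23 in water and −4.36, −4.61 and −4.70 with captopril, and was at least 1.73-fold higher over the 5 arrays and at least 1.57-fold over the 6. A_30_P01022587 read −5.19, −7.02 and −5.33 in water and −3.94, −3.74 and −3.91 with captopril, and was at least 2.47-fold and 2.34-fold higher. A_30_P01019703 was at least 2.67-fold higher over the 5 arrays. It read −5.81, −3.85 and −6.03 in water and −4.13, −3.55 and −4.10 with captopril, so that water replicate 3, where it was well above background, lay among the captopril arrays. All 3 had a limma adjusted p of 0.043 without water replicate 3, and of 0.554 to 0.565 over 6 arrays. A_30_P01031701 and A_30_P01022587 were well above background on no water array, so they passed the filter only through the captopril arrays where they were high. A_30_P01019703, and A_30_P01018461 above, were so in water only on replicate 3, so within the fit of 5 arrays the same holds for them. The p-values of these 4 in that fit support nothing further.

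Both falls belonged to 1 interval and strand with 4 members, and were among the brighter probes called. A_30_P01030223 read 2.01, −0.33 and 2.05 on water replicates 2, 3 and 4 and 0.57, 0.79 and 0.45 with captopril. Without water replicate 3 the mean fell, with 2.03 ± 0.03 (SD, n = 2) in water and 0.61 ± 0.17 (n = 3) with captopril, a difference of −1.42 log2 units (SE 0.17, limma adjusted p = 0.045), but on that array it lay below the captopril arrays. A_30_P01021081 read 2.18, 0.61 and 2.23 in water and 1.04, 1.12 and 0.99 with captopril, and fell by 1.16. It too was lower on water replicate 3 than with captopril. A_30_P01021461 stood at −1.37 in that fit (limma adjusted p = 0.054) and read −2.05 on water replicate 3. A_30_P01023181, at 1.64, 2.34 and 2.28 in water and 0.96, 0.57 and 0.83 with captopril, was the only one of the 4 whose captopril arrays lay below all water arrays (−1.18, limma adjusted p = 0.088).

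Over all 6 arrays the 4 largest differences upward among members detected everywhere, and without overlap of the groups, rested largely on water replicate 3. A_30_P01028823 read 3.26, −2.25 and 3.26 in water and 3.54, 3.41 and 3.67 with captopril, which gave 2.11 (SE 1.44) over 6 arrays and 0.28 (SE 0.16) without that array. A_30_P01018267 read 2.09, −2.17 and 2.07 in water and 2.36, 2.66 and 2.71 with captopril, which gave 1.91 and 0.50. A_30_P01028578 and A_30_P01029418 moved likewise, from 1.92 and 1.91 over 6 arrays to 0.48 and 0.22. In all 4 the captopril arrays exceeded water replicates 2 and 4 by little.

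The remaining large differences in that direction were present on the other water arrays too. A_30_P01025270 read −2.11, −4.14 and −2.26 in water and −0.92, −0.89 and −1.15 with captopril, giving 1.85 over 6 arrays and 1.20 without water replicate 3 (limma adjusted p = 0.054). Its 4 companion probes on the same strand stood between 0.71 and 1.11 in the fit of 5 arrays. A_30_P01024135 read −1.65, −3.55 and −1.85 in water and −0.79, −0.71 and −0.34 with captopril, giving 1.74 and 1.14. A_30_P01026496 and A_30_P01029006 stood at 1.85 and 1.77 over 6 arrays and at 0.90 and 0.85 without that array. None passed the test in either fit.

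The largest lower values over 6 arrays kept their sign without that array. A_30_P01023606 read −2.08, −0.85 and −1.99 in water and −3.07, −3.98 and −3.82 with captopril, giving −1.98 (SE 0.42) over 6 arrays and −1.58 (SE 0.28, limma adjusted p = 0.072) without water replicate 3. The 4 companion probes on its strand stood between −0.96 and −0.85 over 6 arrays, and the 3 on the opposite strand between −1.06 and −0.44. A_30_P01024529 and A_30_P01032120, probes to 1 interval and strand, gave −1.89 and −1.50 over 6 arrays and −1.46 and −1.08 without that array. The first read −2.18, −0.76 and −1.91 in water and −3.14, −3.27 and −4.10 with captopril.

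Of the further lower values, some stood alone in their interval and others did not. A_30_P01023313 read −0.59, −0.45 and −0.41 in water and −1.19, −3.24 and −2.22 with captopril, so that the water arrays were tight and the captopril arrays spread, giving −1.74 (SE 0.50) over 6 arrays and −1.72 over 5. The other member on its strand stood at −0.31 over 6 arrays, and the 9 on the opposite strand between −0.37 and 1.06. A_30_P01026738 gave −1.57 over 6 arrays and −0.93 without water replicate 3, while the other 3 members of its interval stood between 0.41 and 0.60 over 6 arrays. A_30_P01029844 and A_30_P01017922 gave −1.53 and −1.49, and −0.86 and −1.16 without water replicate 3. All 4 companions of A_30_P01029844, on the same strand, were lower too, between −1.04 and −0.62 over 6 arrays. Those of A_30_P01017922 were mixed over 6 arrays, with 8 on its strand between −1.49 and 0.73 and 5 on the other between −0.58 and 0.66. Without water replicate 3 the 8 were all lower, between −1.25 and −0.51, and the 5 stood between −0.91 and 0.62.

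The lowest value among members detected on all arrays and without overlap came from 1 spot. A_30_P01022413 read −0.51, −0.16 and 6.54 in water and −0.96, −0.86 and −0.54 with captopril, giving −2.74 (SE 1.79) over 6 arrays. Its 11 companion members read at most 0.01 on water replicate 4, and stood between 0.24 and 1.20 in the fit of 5 arrays. On water replicate 4, A_30_P01023076 likewise read 7.91, from a saturated spot, against −3.36 to −0.88 elsewhere, and A_30_P01024308 read 7.92, against −6.78 to −4.68. These 3 were the only probes of all 32422 that exceeded every other array by over 5 log2 units on 1 array, and none carried the program's outlier flag. With slide row 2 alone, where water replicate 4 is the single water array, limma called exactly 3 probes, and with the slide row as a block it called A_30_P01022413 and A_30_P01024308 (adjusted p = 0.0272), so that those calls rest on single spots.

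Detection as such also differed between the groups in some members. Over 6 arrays 51 members (0.729%) were well above background on all captopril arrays and on no water array, where all probes tested gave 0.327%. In the opposite direction there were 13 (0.186%; all probes 0.336%). Without water replicate 3 the counts were 62 (0.886%; all probes 0.401%) and 13 (0.186%; all probes 0.336%). The 51 passed the filter only through the captopril arrays where they were high, and the 13 only through the water arrays. Neither count, nor its share beside that of all probes, supports anything further. A probe well above background on no captopril array passed the filter only if it was so on all 3 water arrays. Without water replicate 3 the 13 and its share over all probes therefore had to repeat those over 6 arrays, and 62 against 13 gives no direction.

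Probes to the same interval and strand had related fold changes. The 6995 members lay in 2204 intervals, or 2853 combinations of interval and strand, of which 1725 held more than 1 member and 1129 at least 3. Over the 5867 members that shared a combination, the share of variance in log2 fold change lying between combinations was 0.49 over 6 arrays and 0.44 over 5. The median range of the fold change within a combination was 0.59 log2 units over 6 arrays and 0.42 over 5. Probes of 1 combination share arrays and may share a transcript, so this is a description. In the 1129 combinations with at least 3 members, signs were mixed in 535 over 6 arrays and in 571 over 5, the largest class in both. All members had positive values in 449 and negative values in 145 over 6 arrays, and in 444 and 114 over 5. All members were higher without overlap in 53 and lower without overlap in 14 of these over 6 arrays. Taken singly, 70.1% of the members were positive over 6 arrays and 70.7% over 5 (all probes 55.8% and 62.0%). Without overlap over 6 arrays, 24.6% of the members lay above and 5.63% below (all probes 14.5% and 9.32%). No such count by combination was made for other probes.

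Opposite strands of an interval were often both detected. Of 1067 intervals probed on both strands, 649 (60.8%) had a member on each, 249 on only 1, and 169 on neither. Levels of the strands come from different probes, whose signals are not comparable, so no difference between strands is read from them. Across these 649 intervals the log2 fold changes of the strands correlated at r = 0.27 over 6 arrays and r = 0.25 over 5, and at 0.29 and 0.35 without the 3 probes that stood out on water replicate 4. The points share arrays and intervals, and the labels describe labelled complementary DNA without saying whether strand was kept, so that signal of 1 strand cannot be told apart from that of the other.

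The brightest intervals with members on both strands had levels above that of the 75th percentile on each. In the first, the forward probe A_30_P01020276 read 4.22, 5.23 and 4.15 in water and 4.11, 4.30 and 4.46 with captopril, and the reverse probe A_30_P01029802 read 4.34, 4.95 and 4.21 in water and 4.29, 4.54 and 4.75 with captopril. In the second the median level was 4.97 on the forward and 3.28 on the reverse strand, and in the third 4.48 and 3.83. Their median log2 fold changes lay between −0.24 and 0.13 over 6 arrays and between 0.11 and 0.41 over 5, and A_30_P01020276 changed sign, from −0.24 to 0.11.

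Members were also grouped into larger regions, formed from intervals with a member that lay less than 10 kb apart on a chromosome. This gave 1407 regions. How many array probes each region held was not counted. The region with most members had 32 probes in 8 intervals over 189.8 kb, 18 forward and 14 reverse. Its median level was −3.37, −3.16 and −3.57 in water and −2.98, −3.18 and −3.30 with captopril. Its members were mixed, with log2 fold changes of −1.90 to 1.76 over 6 arrays (median 0.20), 20 of them positive. The next, with 31 probes over 146.5 kb, had a median level of −3.49, −4.88 and −3.20 in water and −3.29, −2.51 and −2.76 with captopril. There 28 of 31 values were positive over 6 arrays, with a median of 0.89, and 29 without water replicate 3, with a median of 0.38. That region holds A_30_P01023076, the probe with a saturated spot on water replicate 4. Over all members 70.1% of values were positive over 6 arrays and 70.7% over 5 (all probes 55.8% and 62.0%). The third had 29 probes over 360.0 kb, with medians of 0.20 over 6 arrays and 0.14 over 5.

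Strand, length and chromosome of the intervals were also compared. Forward and reverse members numbered 3475 and 3514, with median log2 fold changes of 0.32 and 0.28 over 6 arrays and 0.21 and 0.19 over 5. Intervals under 5 kb had fewer of their probes detected (30.8%) than those of 5 to 20 kb (48.2%) or longer (46.2%), and medians of 0.25, 0.33 and 0.30 over 6 arrays, and of 0.20 in each over 5. On the X chromosome 37.6% of 577 probes were members and on the autosomes 43.4%, with medians of 0.35 and 0.30 over 6 arrays, and of 0.15 and 0.20 over 5. Among the single chromosomes examined, medians over 6 arrays ran from 0.22 on chromosome 6 to 0.42 on chromosome 11, and over 5 arrays from 0.15 on the X chromosome to 0.29 on chromosome 11. On chromosome 10, 245 of 720 probes were members, and on chromosome 17, 486 of 904.

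Genes of the machinery that binds or degrades such RNAs did not pass the test in either fit. Polycomb repressive complex 2, a histone methyltransferase complex that some long noncoding RNAs bind, had 9 of 9 genes measured, with a median log2 fold change of −0.42 over 6 arrays and −0.15 without water replicate 3, and 2 positive values in each. Its catalytic subunit Ezh2 read 0.94, 1.92 and 1.11 in water and 0.58, 0.66 and 0.45 with captopril (−0.76, SE 0.31, limma adjusted p = 0.563), and stood at −0.46 without water replicate 3. Suz12, a core subunit, stood at −0.71 over 6 arrays and −0.57 over 5, and the accessory subunit Phf19 at −0.74 and −1.12 (limma adjusted p = 0.075). The 15 genes of the nuclear RNA exosome, which degrades many noncoding transcripts, and its adaptors had medians of −0.07 and 0.03. Exosc3, a subunit of its cap, stood at −1.18 (SE 0.53) over 6 arrays and −1.14 over 5, and read 0.98, −1.24 and −0.10 with captopril. Of 20 annotated long noncoding RNAs, 13 were measured and none passed. Their median was 0.09 over 6 arrays, with 8 positive values, and 0.27 over 5, with 10. Tug1 stood at −1.11 over 6 arrays (SE 0.40) and over 5 (SE 0.41), Dleu2 at 1.59 over 6 arrays and 0.62 over 5, and Pvt1 at 0.34 and 0.75 (limma adjusted p = 0.085 over 5). All probes tested had medians of 0.07 and 0.11.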

How the data were processed

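RNA from the cultures was labelled with Cy3 and hybridised to 6 single-colour Agilent arrays, 3 per group. Per the file headers, the deposited intensity of each spot is the processed signal of Agilent's extraction program, background-subtracted within the array. That program is version 11.5.1.1 in the headers and 10.7 in the submitters' processing notes. The authors' deposited log2 table differs from log2 of these intensities by a constant per array (r = 1), and served as an alternative. Its column medians were −4.24 to −3.62.

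Log2 of the processed signal minus each array's 75th percentile (signal 1875 to 3424) entered limma's lmFit and eBayes (limma 3.58.1, R 4.3.3; two-sided, Benjamini-Hochberg over all 32422 probes well above background on at least 3 arrays, threshold 0.05). Flagged outlier spots were left out, so that 10 members lack an array. The arrays' design build is mm9 per the file headers, while the gene table used for symbols is GRCm38.p6, so no coordinates or neighbouring genes are given.

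Members named are those called without water replicate 3 (10 largest rises, all falls), the 8 largest differences in each direction over 6 arrays among members detected on all and without overlap, the 5 brightest, 3 regions with most members and the 3 brightest intervals on both strands, with companion probes beside them. The members and lists were chosen with earlier results of these data known. Code was tested on simulated data. Counts were made in Python 3.11.15. Alternatives were normexp (offset 50, on the median spot signal), quantile and array-median scaling, other filters, slide row or replicate number as a block, and each array left out. Neighbouring genes were not analysed here.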

Additional observations from a re-analysis of the deposited data

How the results depend on the processing

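Over all 6 arrays limma called 0 members, and 0 probes in all, under every alternative run except the slide row as a block (2 members, 2 probes), slide row 2 alone (3 and 3) and the fit without water replicate 3 (18 and 83). Leaving out each array in turn gave 0 to 18 members and 0 to 83 probes. The replicate number as a block gave 0 members as well, with a median log2 fold change of 0.30. At an unadjusted p under 0.05 there were then 676 (9.66%; all probes 6.53%) against 876 (12.5%; all probes 8.84%). Deviations of same-numbered arrays from their group means correlated at 0.007, 0.029 and −0.148. These means rest on 3 arrays, and those in water were pulled by replicate 3, so the values cannot decide whether the numbers pair the arrays. Without water replicate 3 the 18 calls (all probes 83) became 0 (all probes 0) with quantile normalization, with the array median and without the filter. With all 5 arrays well above background limma called 56 of 6048 members and 189 of all 29857 probes. With 1 value per interval and strand (chosen after seeing the data) it called 6 of 2853, and 81 of all 28280 tested. It called 0 members with any captopril replicate left out as well (all probes 0). The median log2 fold change of the members, 0.30, was 0.12 with quantile normalization, −0.02 with the array median, 0.15 without the filter, 0.15 with detection on all 6 arrays, and 0.20 to 0.36 with each array left out. Members without overlap of the groups, 2114 (30.2%; all probes 23.9%), became 1313 with detection on all 6 arrays (27.2%; all probes 21.9%). In slide row 2 alone, with 1 water array, they were 4779, at 68.3% near the 67% of all probes. With an array left out they ran from 2354 (33.7%; all probes 27.4%) to 3173 (45.4%; all probes 43.7%). Among the members recomputed under each alternative (the called ones named, the 8 largest in each direction and the 5 brightest), 2 of the brightest changed sign. A_30_P01031246, −0.02, was 0.02 with quantile normalization, 0.63 with the slide row as a block or slide row 2 alone, and −0.35 to 0.19 with an array left out. A_30_P01022039, 0.03, was −0.04 with quantile normalization, −0.28 with the array median, and −0.11 and −0.04 without water replicate 4 and captopril replicate 4. Why these settings differ was not tested. Low signal limits the dim members.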
